A study of Homo sapiens with 12 samples.

Results

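Immediate early genes are transcribed within minutes of a growth factor or stress signal, before any new protein is made. In the best known route, ERK kinases phosphorylate ELK factors that sit with serum response factor (SRF) on CArG boxes, the A/T-rich sites that SRF binds, and genes such as EGR1 are switched on. Their transcripts are short-lived, and many of them encode transcription factors or nuclear proteins that set the later response of mesenchymal cells to serum and matrix. The 10 genes described here are EGR1, EGR2, EGR3, IER2, IER3, IER5, IER5L, NR4A1, SRF and MYC, which are the early response genes outside the AP-1 family that were named for this description. Each matched 1 row by its gene name, so they make up 10 of the 63241 genes of the deposited table.

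HEPM cells, an established human line from the mesenchyme of the embryonic palate, were transfected with a plasmid for MSX1, a homeobox factor of the developing palate and teeth, and their RNA was taken 6 h later. The MSX1 protein was wild type (WT), or had one arginine replaced by serine (R157S), lysine (R157K) or phenylalanine (R157F), with 3 libraries for each of the 4 plasmids and 12 in all. All groups share the overexpression of an MSX1 protein, the transfection and a medium with fetal bovine serum, and neither untransfected nor empty-vector cells were analysed here. The promoter of the plasmids is not given in the sources used here, and since no label states that the libraries of a group are separate cultures, the p-values reflect the spread between these libraries, which may be technical.

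Levels are TPM, a length-normalised share of each library's transcripts that keeps no read depth. Differences are in log2(TPM + 1), which understates changes of low genes, and adjusted p-values are from limma fitted to the 14718 genes that reached 1 TPM in 3 or more libraries, with a threshold of 0.05. Values after ± are SDs over 3 libraries. In bulk RNA, fewer cells that express a gene and less RNA per cell cannot be told apart. All 8 mesenchymal markers examined, VIM and COL1A1 among them, were at 1 TPM or more in every group. Of the markers of other cell types, 2 of 7 epithelial, 2 of 5 endothelial, 2 of 6 immune, 1 of 5 neural and 2 of 5 muscle markers (3 with R157F) had a group mean of 1 TPM or more. Among these, CD68 was at 315 to 590 TPM, TUBB3 at 153 to 244, CD74 at 10.2 to 23.7 and KRT18 at 12.5 to 19.5 over the group means, while MYOD1, MYOG and CD3E were at 0 in every library and EPCAM, CDH1, PTPRC and SOX10 had group means under 1 TPM. The summed immune markers ran from 242 to 500.5 TPM with WT, 578 to 672 with R157S, 278 to 371 with R157K and 450.4 to 689 with R157F. The summed neural markers ran from 112 to 191, 197 to 213, 170 to 229 and 233 to 261 TPM. The part of these markers in the differences below was not tested. MSX1 was at 224 to 446 TPM with WT, 326 to 642 with R157S, 333 to 604 with R157K and 627 to 1007 with R157F, and its part in the differences below was not tested. WT replicate 2 and R157K replicate 2 stood apart within their groups. WT replicate 2 had the highest mitochondrial share of all libraries (9.96% of TPM) and the lowest ribosomal protein share (4.36%), and it held the lowest WT value of 7 of the 9 tested genes of the set. R157K replicate 2 had the highest ribosomal protein share (13.4%) and held the lowest R157K value of all 9.

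Promoter sequence is shown for 4 genes of the set because of the order of their group means, described below. In deposited TPM, EGR1 and SRF were highest with R157F and next with R157S, whereas IER2 and IER5 were high with R157K and R157F. MYC and EGR3 also had their highest mean with R157F and the next with R157S, but no promoter was matched for either. For SRF the difference of R157S from R157K was not called (log2 0.23, adjusted p = 0.235). It turned to -0.14 after median-ratio scaling of the libraries (adjusted p = 0.474). With GC and length trends removed, as described below, SRF differed from WT by 0.04 with R157S, -0.05 with R157K and 0.04 with R157F. The 250 bases before the annotated start are from RefSeq (GRCh38.p14), written 5′ to 3′ on the gene's strand, and capitals mark CArG boxes.
EGR1, chr5:138465229-138465478, plus strand: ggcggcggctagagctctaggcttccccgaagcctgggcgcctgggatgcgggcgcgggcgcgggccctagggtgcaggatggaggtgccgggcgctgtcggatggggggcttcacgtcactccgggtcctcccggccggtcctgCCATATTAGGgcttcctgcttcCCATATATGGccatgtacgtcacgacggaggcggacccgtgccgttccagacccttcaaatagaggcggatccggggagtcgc
SRF, chr6:43171019-43171268, plus strand: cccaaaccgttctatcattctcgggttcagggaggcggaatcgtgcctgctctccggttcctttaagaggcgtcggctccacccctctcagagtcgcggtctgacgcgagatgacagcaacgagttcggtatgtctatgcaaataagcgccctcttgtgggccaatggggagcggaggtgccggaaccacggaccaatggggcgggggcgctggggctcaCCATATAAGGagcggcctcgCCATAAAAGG
IER2, chr19:13150161-13150410, plus strand: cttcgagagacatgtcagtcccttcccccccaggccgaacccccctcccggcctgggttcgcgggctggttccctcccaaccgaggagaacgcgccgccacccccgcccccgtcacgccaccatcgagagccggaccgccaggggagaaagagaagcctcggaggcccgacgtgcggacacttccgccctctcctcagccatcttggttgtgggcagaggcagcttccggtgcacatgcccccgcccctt
IER5, chr1:181088450-181088699, plus strand: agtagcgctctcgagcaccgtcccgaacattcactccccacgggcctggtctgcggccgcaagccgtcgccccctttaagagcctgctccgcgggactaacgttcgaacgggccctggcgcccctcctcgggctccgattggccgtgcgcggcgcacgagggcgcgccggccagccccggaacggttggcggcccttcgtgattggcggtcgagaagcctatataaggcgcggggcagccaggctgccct

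The promoters of 7 of the 10 genes, with 11 starts, were matched in the RefSeq table and searched on both strands for the CArG box, the core TGACG of the cyclic AMP response element (CRE) and the EGR site GCGNGGGCG. CArG boxes lay in 3 of the 11 promoters, 1 each of EGR1, EGR2 and SRF, and in 1.16% of all 35116 promoters of that length. EGR1 had 2 of them, at -105 to -96 and -83 to -74 from the start, and SRF had 2 as well, at -30 to -21 and -10 to -1. CRE cores lay in 4 of the 11, 1 each of EGR1, EGR2, IER2 and SRF, and in 21.2% of all promoters. EGR sites lay in 2 of the 11, of EGR1 and SRF, and in 8.42% of all promoters. No motif match overlapped one of another motif. No match was found in these windows for IER5, IER5L and NR4A1.

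In GENCODE 29 on GRCh38, the genes with printed promoters lie on the plus strand, EGR1 at chr5:138465490-138469315, SRF at chr6:43171299-43181507, IER2 at chr19:13150415-13154908 and IER5 at chr1:181088712-181092899. NR4A1 (chr12:52022832-52059507) and MYC (chr8:127735434-127741434) are on the plus strand too. IER3 (chr6:30743199-30744554), IER5L (chr9:129175552-129178262), EGR2 (chr10:62811996-62919900) and EGR3 (chr8:22687659-22693302) are on the minus strand. Genes on the opposite strand overlap IER2, IER3, IER5L, NR4A1 and EGR3, and those listed in the table reached 3.42 TPM at most (AC011446.2, beside IER2). Since the strand setting of the counting is not known, reads of such pairs may not have been told apart.

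**Figure D1:**
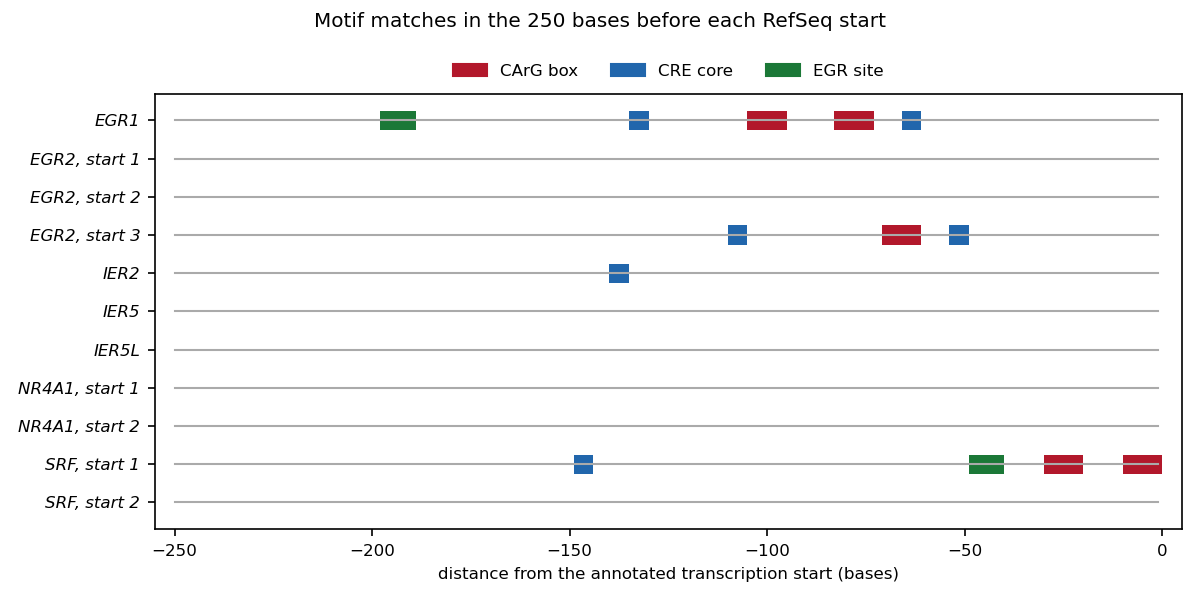
Motif matches in the 250 bases before each RefSeq start of the 7 genes with a promoter in the table; the x axis is the distance from the start in bases and each bar is a match. CArG boxes stand before EGR1, 1 start of EGR2 and 1 start of SRF, and the IER5, IER5L and NR4A1 rows are empty.

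With all 4 plasmids in one test, 8 of the 9 tested genes of the set differed (limma F test), where 70.8% of all tested genes did. EGR3 did not pass (adjusted p = 0.189), and EGR2 was too low to be tested. The lowest adjusted p-values were those of IER5 (1.69e-05), IER2 (6.79e-05) and EGR1 (8.68e-05). Since most genes of the table differed among the plasmids, the count by itself does not set the 8 genes apart, and the order of the groups and the size of each difference are given gene by gene.

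EGR1 encodes a zinc finger transcription factor that is the standard readout of ERK and SRF signalling. It was at 24.4, 24.6 and 28.4 TPM in WT replicates 1 to 3, at 53.9, 51.9 and 54.4 with R157S, at 40.8, 26.4 and 39.7 with R157K and at 55.4, 57.1 and 57.9 with R157F. All R157S and R157F libraries lay above all WT libraries, whereas R157K replicate 2 fell within the WT range. The mean doubled with R157S, from 25.8 ± 2.25 to 53.4 ± 1.32 TPM (2.07 times; log2 1.02, SE 0.14, adjusted p = 0.00656). With R157F it was 56.8 ± 1.25 TPM (2.20 times WT; log2 1.11, SE 0.14, adjusted p = 0.000206). With R157K it was 35.6 ± 8.03 TPM (log2 0.43, SE 0.14, adjusted p = 0.0193), and this smaller rise missed the threshold with only those 2 groups in the fit and without WT replicate 1, R157K replicate 1 or R157K replicate 3 (log2 0.32 to 0.62 and adjusted p up to 0.0902 over the fits with 1 library left out).

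EGR1 was thus at its highest with serine and phenylalanine. Those groups differed from each other by -0.09 (R157S minus R157F, SE 0.14, adjusted p = 0.706). Their libraries did not overlap, the highest R157S value being 54.4 TPM and the lowest R157F value 55.4. R157K stood lower, by 0.60 against R157S (adjusted p = 0.0042) and by 0.68 against R157F (adjusted p = 0.0051). After median-ratio scaling of the libraries, neither of these passed (0.22, adjusted p = 0.198, and 0.38, adjusted p = 0.0866). The rise with R157K over WT became 0.83 (adjusted p = 0.000183). The ribosomal protein share was larger with R157K, and its part in the effect of scaling was not tested.

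The other EGR genes were near the bottom of the range. EGR2, a zinc finger factor best known from Schwann cells and the hindbrain, was listed at 0 in 5 of the 12 libraries and reached 0.23 TPM at most, in R157F replicate 2. EGR3 ran from 0.69 to 2.24 TPM and was at 1 TPM or more in 7 libraries, none of them WT. Its WT values were 0.78, 0.99 and 0.90 TPM, and the R157S values of 1.61, 1.66 and 1.46 lay above them (log2 0.45, SE 0.21, adjusted p = 0.131). With R157K it was at 1.53, 0.69 and 1.45 TPM (log2 0.21, adjusted p = 0.400) and with R157F at 1.67, 2.24 and 0.98 TPM (log2 0.45, adjusted p = 0.0878), and both groups overlapped WT.

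**Figure D2:**
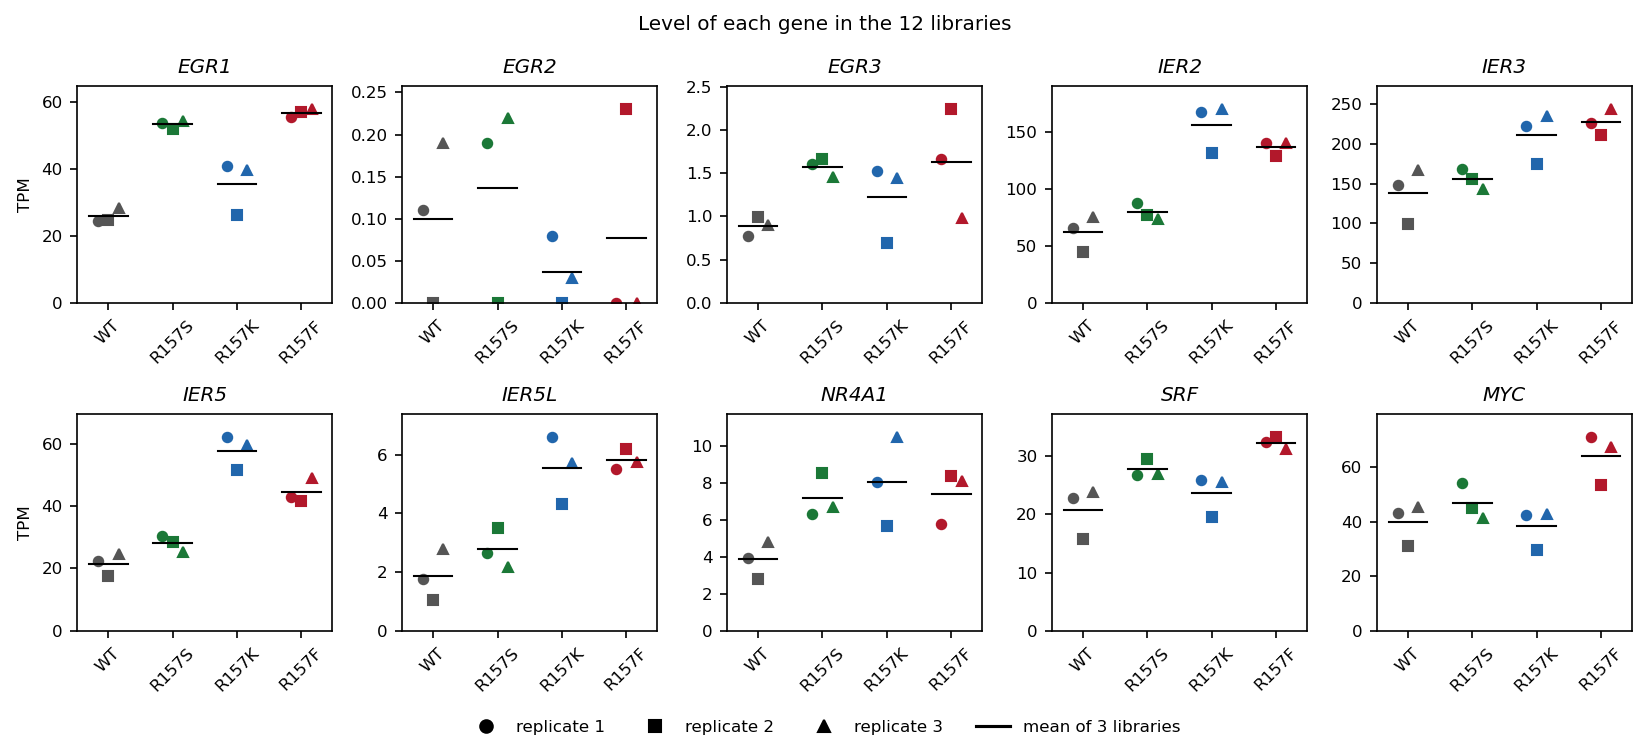
TPM of each of the 10 genes in the 12 libraries, with a separate linear y axis from 0 for each gene; marker shapes are replicate numbers and bars are means of 3 libraries. EGR1 is high with R157S and R157F, while IER2, IER5 and IER5L are high with R157K and R157F, and EGR2 stays at or under 0.23 TPM.

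IER2, IER5 and IER5L formed the other pattern. IER2 is a small nuclear protein induced by growth factors, IER5 a related nuclear protein that can activate the heat shock factor HSF1, and IER5L its paralogue. Each is a single-exon gene in GENCODE 29, as were 6.65% of the tested genes with an annotation. IER2 was at 65.9, 44.7 and 74.9 TPM with WT and at 87.6, 76.6 and 73.7 with R157S, which overlapped. With R157K it was at 167, 131 and 170 TPM and with R157F at 140, 129 and 140 TPM, and every one of these libraries lay above all WT and R157S libraries. IER2 rose 2.52 times with R157K (log2 1.34, SE 0.17, adjusted p = 2.19e-05) and 2.20 times with R157F (log2 1.16, SE 0.17, adjusted p = 0.000307). The R157S difference was 0.38 (SE 0.17, adjusted p = 0.106).

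IER5 was at 22.3, 17.6 and 24.6 TPM with WT, at 30.3, 28.3 and 25.2 with R157S, at 62.1, 51.5 and 59.6 with R157K and at 43.0, 41.7 and 48.8 with R157F. The 4 groups did not overlap, in the order WT, R157S, R157F and R157K. Its mean rose from 21.5 ± 3.55 TPM with WT to 57.8 ± 5.53 with R157K (2.69 times; log2 1.39, SE 0.13, adjusted p = 3.62e-06) and to 44.5 ± 3.80 with R157F (2.07 times; log2 1.02, adjusted p = 0.000211). The step from WT to R157S (log2 0.37, adjusted p = 0.0614) and that from R157F to R157K (log2 0.37, adjusted p = 0.0527) each just missed the threshold. Once the library totals were rescaled by median ratios these neighbouring steps passed (0.40, adjusted p = 0.0457, and 0.67, adjusted p = 0.00619). The R157K and R157F pair also passed with the replicate number as a block (adjusted p = 0.0465). The step from WT to R157S did not (adjusted p = 0.0559). That step stayed uncalled in 8 of the 10 alternatives other than leaving out a library.

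IER5L repeated the pattern at a lower level. It was at 1.78, 1.04 and 2.79 TPM with WT, at 2.65, 3.51 and 2.16 with R157S, at 6.61, 4.31 and 5.71 with R157K and at 5.53, 6.20 and 5.75 with R157F. It rose 2.96 times with R157K (log2 1.22, SE 0.22, adjusted p = 0.000414) and 3.12 times with R157F (log2 1.29, SE 0.22, adjusted p = 0.000643). With R157S it overlapped WT (log2 0.43, adjusted p = 0.166).

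Serine and lysine differed from each other at all 3 of these genes. In R157S against R157K, IER2 differed by -0.96 (adjusted p = 0.000563), IER5 by -1.02 (adjusted p = 8.27e-05) and IER5L by -0.79 (adjusted p = 0.0105), all lower with R157S, and EGR1 by 0.60 in the other direction. Relative to the median change of all genes, which was 0.33 here, these were -1.29, -1.35, -1.13 and 0.26. Of the 9 tested genes of the set 1 was higher and 3 were lower with R157S, where 42.2% and 7.90% of all tested genes were, and after scaling 0 and 4, with IER3 the added one. In R157S against R157F the same IER genes were lower with R157S, IER2 by 0.78 (adjusted p = 0.0264), IER5 by 0.65 (adjusted p = 0.0236) and IER5L by 0.87 (adjusted p = 0.0441), with 0 genes of the set higher, where 1.11% of all tested genes were lower and 4.31% higher. Without R157S replicate 2 or 3 or any single R157F library the count of such calls was 0. IER5L kept its call in only 3 of the 9 alternatives other than leaving out a library. It missed the threshold with the replicate block (adjusted p = 0.0621), a pseudocount of 0.1, no filter on low values, and GC and length trends removed (adjusted p = 0.0542). Without that filter IER2 missed it too (adjusted p = 0.0642). In R157K against R157F, 3 genes of the set were lower with R157K (EGR1, SRF and MYC) and 0 were higher, against 26.4% and 3.30% of all tested genes. After scaling the count was 1, with IER5 higher with R157K.

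IER3, a stress-induced protein that acts on apoptosis and ERK signalling, was the most abundant of the set. It was at 148, 98.9 and 167 TPM with WT, at 169, 156 and 144 with R157S, at 222, 175 and 235 with R157K and at 226, 211 and 244 with R157F. R157K and R157F libraries lay above all WT and R157S libraries. It rose with R157K (log2 0.63, SE 0.17, adjusted p = 0.00624) and with R157F (log2 0.75, SE 0.17, adjusted p = 0.00308), and the R157S difference was 0.21 (adjusted p = 0.366). Between R157S and R157K it differed by -0.42 (adjusted p = 0.0582, and 0.0284 with the replicate block).

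NR4A1, an orphan nuclear receptor also called NUR77, was the one gene of the set to rise with all 3 variants beside EGR1. It was at 3.96, 2.83 and 4.81 TPM with WT, at 6.33, 8.54 and 6.71 with R157S, at 8.05, 5.70 and 10.5 with R157K and at 5.76, 8.37 and 8.14 with R157F, so each variant group lay above WT. The differences were 0.76 with R157S (SE 0.22, adjusted p = 0.035), 0.89 with R157K (adjusted p = 0.00357) and 0.80 with R157F (adjusted p = 0.00852). The R157S call held in only 1 of the 6 fits that left out a library of the compared groups, the fit without WT replicate 3 (log2 0.60 to 0.90 over the 6, adjusted p up to 0.125). The variants differed from one another by 0.03 to 0.12 in size, with adjusted p from 0.669 to 0.930.

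SRF, the factor that binds CArG boxes, was highest with R157F. It was at 22.9, 15.7 and 23.9 TPM with WT, at 26.7, 29.6 and 26.9 with R157S, at 26.0, 19.6 and 25.5 with R157K and at 32.4, 33.3 and 31.2 with R157F. The R157F libraries lay above those of every other group, and the rise over WT was 0.63 (SE 0.15, adjusted p = 0.0041). With R157S the difference was 0.42 (adjusted p = 0.0662) and with R157K 0.19 (adjusted p = 0.296). After median-ratio scaling both of these passed (0.45, adjusted p = 0.0465, and 0.59, adjusted p = 0.00358). SRF was lower with R157K than with R157F (log2 -0.44, adjusted p = 0.0457), a call lost in each of the 6 fits with 1 library of either group left out and after scaling (-0.14, adjusted p = 0.599).

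MYC, the growth-promoting transcription factor, also had its highest mean with R157F. It was at 43.2, 31.1 and 45.3 TPM with WT, at 54.0, 44.8 and 41.4 with R157S, at 42.2, 29.7 and 42.7 with R157K and at 71.0, 53.3 and 67.4 with R157F. The R157F range overlapped that of R157S and lay above WT and R157K. MYC rose with R157F (log2 0.68, SE 0.18, adjusted p = 0.00739) and was lower with R157K than with R157F (log2 -0.73, SE 0.18, adjusted p = 0.0112). The latter missed the threshold after scaling (-0.43, adjusted p = 0.143) and without R157F replicate 1 (adjusted p = 0.0514). Against WT, R157K differed by -0.06 (adjusted p = 0.790), and by 0.35 after scaling (adjusted p = 0.0945), so no direction is given.

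Against WT, 2 of the 9 tested genes were higher with R157S than with WT, where 7.60% of all tested genes were, and 0 were lower, where 12.8% were. With R157K 6 were higher, against 17.3% of all tested genes, and 0 lower, against 46.2%. With R157F 8 were higher, against 24.4%, and 0 lower, against 33.8%. Groups lay fully above WT for 5, 5 and 8 of the 9 genes with R157S, R157K and R157F, and for 19.7%, 15.9% and 28.6% of all tested genes. The median difference of the 9 genes was 0.42, 0.63 and 0.80, beside all-gene medians of -0.0066, -0.34 and -0.084. Relative to those medians the R157K differences were 0.77 for EGR1, 1.68 for IER2, 0.97 for IER3, 1.73 for IER5, 1.56 for IER5L, 1.23 for NR4A1, 0.53 for SRF and 0.28 for MYC. Scaling moved the all-gene median by 0.34 for R157K against WT, by -0.32 for R157S against R157K and by 0.26 for R157K against R157F. With scaling 4543 genes of the table were higher and 4477 lower with R157K than with WT, in place of 2553 and 6806, and 4312 and 4226 with R157F, in place of 3596 and 4975. For R157S against WT the split became 1444 and 1488 in place of 1119 and 1883, and for R157S against R157K 2251 and 2575 in place of 6209 and 1162. For R157S against R157F it became 180 and 159 in place of 635 and 163, and for R157K against R157F 889 and 453 in place of 486 and 3884.

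Across the tested genes, differences from WT rose with the GC content of the transcript. All 10 genes of the set have a GC content above the median of tested genes (48.7%), from 49.8% for IER5 to 65.0% for IER5L in the principal transcript of GENCODE 29 (GRCh38). Against WT, the tenth of genes richest in GC had median differences of 0.47 (R157S), 0.69 (R157K) and 0.85 (R157F), and the tenth poorest in GC had -0.52, -1.10 and -0.84. How far composition accounts for the rises of single genes was not tested beyond the trend removal given below. IER5, near the middle of the GC range, and EGR1 (55.4% GC) lay farthest above the all-gene line with R157F. SRF (61.0% GC) and MYC (58.7% GC) followed the all-gene line closely there.

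**Figure D3:**
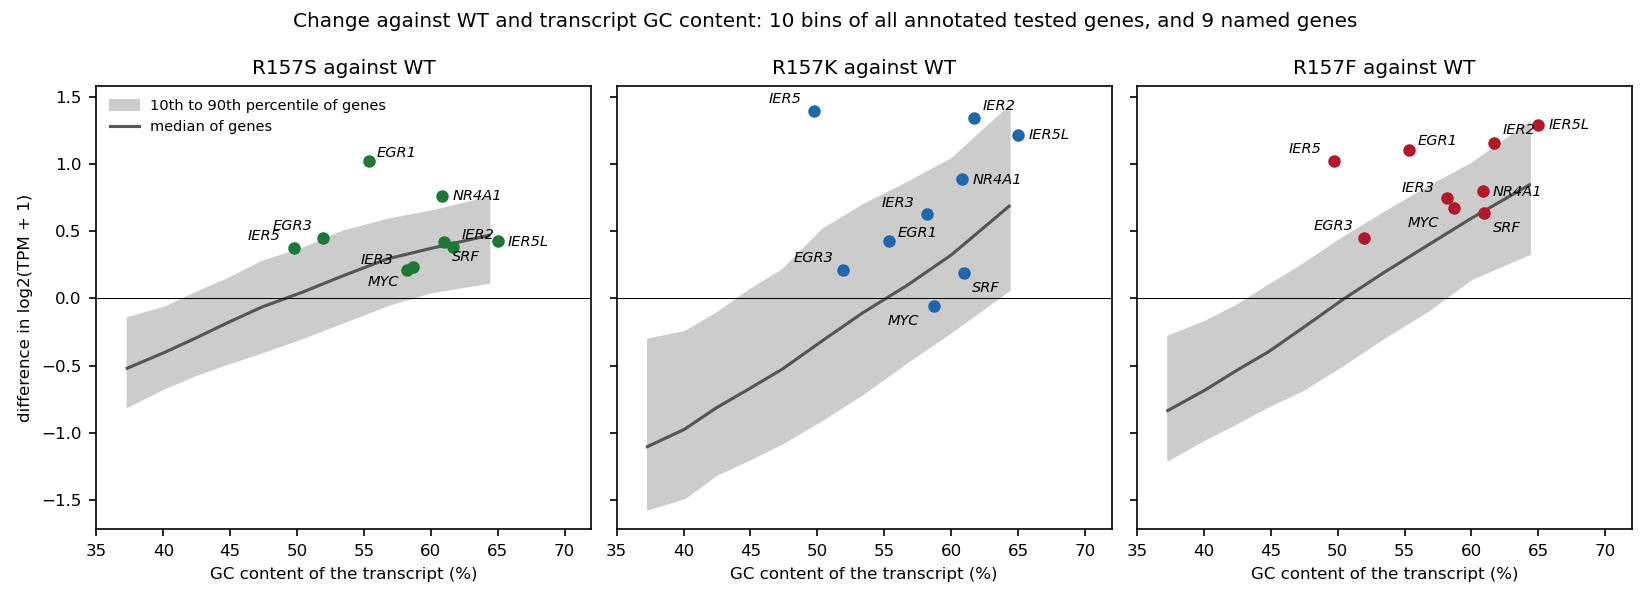
Difference from WT in log2(TPM + 1) against transcript GC content in percent; the line and band are the median and the 10th to 90th percentile of all annotated tested genes in 10 bins, and points are the 9 tested genes of the set. EGR1 with R157S, and IER5 with R157K and R157F, lie farthest above the band, while SRF and MYC with R157F lie near the line.

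When smooth trends on GC content and transcript length were removed from every library, EGR1, IER2, IER5 and IER5L kept their calls with R157K and R157F, though some rises became smaller. EGR1 stayed higher with R157S (0.80, adjusted p = 0.00169), R157K (0.50, adjusted p = 0.00111) and R157F (0.85, adjusted p = 0.00019). IER5 stayed higher with R157K (1.87, adjusted p = 1.07e-06) and R157F (1.13, adjusted p = 0.000129). IER2 went from 1.34 to 0.99 with R157K and from 1.16 to 0.52 with R157F. IER5L went from 1.22 to 0.66 with R157K and from 1.29 to 0.48 with R157F (adjusted p = 0.0160). IER3 no longer passed with R157K (0.07, adjusted p = 0.576) or R157F (0.21, adjusted p = 0.117). SRF was at 0.04 with R157S, -0.05 with R157K and 0.04 with R157F (adjusted p = 0.706, 0.538 and 0.637). NR4A1 kept its call with R157K (0.56, adjusted p = 0.0094) and lost it with R157S (0.39, adjusted p = 0.136) and R157F (0.19, adjusted p = 0.358).

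MYC turned on the annotation used. Its principal transcript in GENCODE 29 has 1365 bases, and with it MYC was at 0.12 with R157F (adjusted p = 0.537) and fell with R157K (-0.61, adjusted p = 0.00306). With the longest transcript of each gene in its place, MYC was higher with R157F (0.41, adjusted p = 0.0416) and the R157K value was -0.13 (adjusted p = 0.488). EGR3 with R157K passed with the principal transcripts (0.57, adjusted p = 0.0298) and not with the longest (0.49, adjusted p = 0.0534). With the trends removed, 1 gene of the set was higher and 0 lower with R157S than with WT, where 3.30% and 2.71% of all genes were. With R157K 6 were higher and 1 lower, where 19.9% and 22.7% of all genes were, and with R157F 4 were higher and 0 lower, where 14.0% and 14.8% were.

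Between variants with the trends removed, IER5 was lower with R157S than with R157K (-1.52, adjusted p = 6.1e-06), as were IER5L (-0.68, adjusted p = 0.00217) and IER2 (adjusted p = 7.6e-06). EGR1 was higher in the same pair (0.30, adjusted p = 0.0295), and so was MYC (0.50, adjusted p = 0.0151), which with the longest transcripts was at 0.15 (adjusted p = 0.458). EGR1 was lower with R157K than with R157F (-0.35, adjusted p = 0.0321), as was MYC (-0.73, adjusted p = 0.00526). IER2 and IER5 were then higher with R157K than with R157F (0.48, adjusted p = 0.0030, and 0.75, adjusted p = 0.00193). The counts, higher and lower, were 2 and 3 for R157S against R157K (15.3% and 13.4% of all genes), 0 and 2 for R157S against R157F (2.12% and 1.34%), where IER2 and IER5 were lower, and 2 and 2 for R157K against R157F (5.93% and 5.77%).

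**Figure D4:**
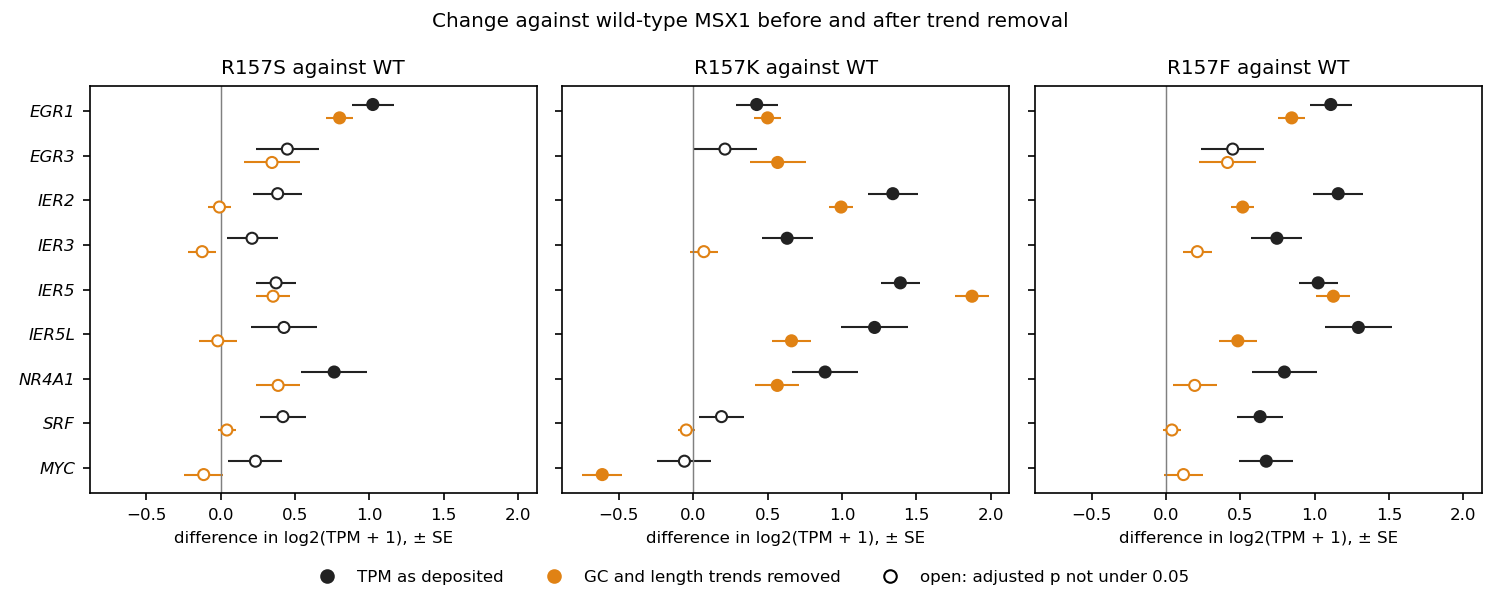
Difference from WT in log2(TPM + 1), ± SE, for the 9 tested genes with each variant, as deposited (black) and after removal of GC and length trends (orange), on one x scale; filled points have an adjusted p under 0.05. EGR1, IER2, IER5 and IER5L stay filled with R157F in both, and IER3, NR4A1, SRF and MYC become open.

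Leaving out the low WT library kept the calls of the IER genes. Without WT replicate 2, IER2 was 1.13 higher with R157K (adjusted p = 1.17e-05) and 0.95 with R157F (adjusted p = 0.000215), IER5 was 1.26 and 0.89, and IER5L 1.00 and 1.07. IER3 went from 0.63 to 0.41 with R157K (adjusted p = 0.0138) and from 0.75 to 0.53 with R157F (adjusted p = 0.00518). EGR1 was 0.99 higher with R157S (adjusted p = 0.0128) and 1.08 with R157F (adjusted p = 0.000356). Within each replicate number, every variant library of EGR1, IER5, NR4A1 and SRF was above the WT library of that number, in 3 of 3 numbers for each variant. IER2, IER3 and IER5L were so in 3 of 3 numbers with R157K and R157F and in 2 of 3 with R157S.

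Likeness within the set was highest for IER2 with IER5 and with IER5L. By the root mean square difference of centred log2(TPM + 1) over the 12 libraries, IER2 and IER5 were nearest (0.11), followed by IER2 and IER5L (0.17) and by SRF and MYC (0.19). IER5 and IER5L came next (0.22). EGR1 was nearest to SRF (0.27), to which MYC, EGR3 (0.23) and IER3 (0.25) were nearer, and EGR1 and IER5 were farthest apart (0.60). Outside the set, 11982 genes with a symbol and a mean of at least 2 TPM were compared. The nearest of them lay at 0.06 from IER2, 0.10 from IER5 and 0.12 from IER5L, closer than any gene of the set. The nearest to EGR1 were MFAP4 (0.13), SDK1 (0.14) and PIANP (0.15), beside a median of 0.56. MFAP4, a microfibril-associated protein, was at 31.2, 65.6, 40.5 and 63.4 TPM with WT, R157S, R157K and R157F. The nearest to NR4A1 were URB1-AS1, SERPINF1 and TMEM119 (0.14, 0.14 and 0.15). Among the genes nearest to SRF were COTL1, an actin-binding protein, and SF3B2 (0.04 and 0.05), and MYC was nearest to KIF3C, WDR62 and CDC42BPB (0.09, 0.13 and 0.13).

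Of 33 other immediate early genes 29 were tested, and they moved both ways. With R157S 5 were higher and 4 lower, with R157K 5 and 10, and with R157F 13 and 6, with medians of 0.18, -0.15 and 0.29. The shares of all tested genes, for this and the following lists, were 7.60% higher and 12.8% lower with R157S, 17.3% and 46.2% with R157K, and 24.4% and 33.8% with R157F, and the all-gene median with R157K was -0.34. The R157K counts turned with median-ratio scaling, to 14 higher and 6 lower. Of all 14718 tested genes, 4543 were then higher and 4477 lower with R157K, in place of 2553 and 6806. With GC and length trends removed the R157K counts of the list were 5 and 5, with 2 and 3 for R157S and 9 and 3 for R157F. The shares of all genes with the trends removed also apply to the following lists. They were 3.30% higher and 2.71% lower with R157S, 19.9% and 22.7% with R157K, and 14.0% and 14.8% with R157F.

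JUNB, the AP-1 subunit, rose with each variant, from a mean of 36.3 TPM to 70.4, 131 and 128 TPM (log2 0.99, 1.86 and 1.85, adjusted p = 0.0186, 1.32e-05 and 0.000155), and kept all 3 calls with the trends removed (0.53, 1.10 and 1.00). TRIB1, a pseudokinase, fell from 17.1 TPM to 12.8, 5.56 and 9.29 (log2 -0.40, -1.47 and -0.82), and kept its calls as well (-0.52, -1.18 and -0.89). KLF6, a zinc finger factor of the early response, fell from 182 TPM to 145, 102 and 146. It lost all 3 calls with the trends removed (-0.20, -0.12 and 0.02, adjusted p = 0.142, 0.249 and 0.884), those with R157S and R157F after scaling, and that with R157S with the replicate block (adjusted p = 0.0506). KLF10, of the same family, fell from 58.8 TPM to 26.4 with R157K and 42.3 with R157F, and with the trends removed the R157K call was kept (-0.44) and the R157F call lost (-0.09, adjusted p = 0.350).

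Of 16 tested genes that act upstream of SRF and the CRE, 1 was higher and 3 lower with R157S, 1 and 11 with R157K, and 3 and 9 with R157F (medians -0.19, -0.80 and -0.43). With trends removed the counts were 0 and 1, 1 and 8, and 2 and 6. CREB1, which binds the CRE, fell from 49.5 TPM with WT to 9.67 with R157K (log2 -2.25, adjusted p = 5.36e-07) and 24.0 with R157F (log2 -1.02, adjusted p = 0.000242). With the trends removed the R157K fall was 1.08 (adjusted p = 0.000615) and R157F was at -0.20 (adjusted p = 0.438). For R157S the difference was -0.40 (adjusted p = 0.0567, and 0.0416 with the replicate block). RPS6KA3, an ERK-activated kinase, fell with all 3 variants (log2 -0.49, -1.40 and -1.01), and with the trends removed only R157S lost the call (-0.12, adjusted p = 0.326).

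Of 5 partners of EGR, NR4A and SRF proteins, 2 were higher and 0 lower with R157S, 2 and 3 with R157K, and 2 and 1 with R157F. NAB2, a corepressor that EGR1 induces and that restrains EGR proteins, rose with each variant, from 25.3 TPM to 40.9, 50.2 and 51.4 (log2 0.72, 1.00 and 1.05, adjusted p = 0.0286, 0.000552 and 0.000855). It stayed higher with the trends removed (0.31, 0.58 and 0.35). RXRA, a dimer partner of NR4A1, rose by 0.43, 0.62 and 0.83, and lost all 3 calls with the trends removed (0.0010, -0.04 and 0.06). SCAI, which restrains the SRF coactivator MRTF, fell with R157K and R157F (log2 -1.07 and -0.79) and was at 0.08 and -0.04 with the trends removed. FHL2, a LIM protein that SRF induces and binds, was lower with R157K (log2 -0.25, adjusted p = 0.036), with an adjusted p of 0.0502 with the replicate block and values of 0.16 after scaling and -0.09 with the trends removed.

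Of 19 tested cytoskeletal targets of SRF, 11 were higher and 0 lower with R157S, 4 and 6 with R157K, and 13 and 1 with R157F (medians 0.49, 0.14 and 0.55). After scaling 12 were higher and 2 lower with R157K, where 4543 and 4477 of all 14718 tested genes were. The direction of this list with R157K thus depended on the scaling. With trends removed the counts were 7 and 0, 4 and 4, and 8 and 1, and the medians 0.24, -0.05 and 0.15. TPM1, a tropomyosin gene, rose by 0.52 with R157S and 0.49 with R157F, and with the trends removed R157F was at 0.24 (adjusted p = 0.0524). Its R157K value was -0.09 (adjusted p = 0.410), 0.32 after scaling and -0.40 with the trends removed, the latter 2 both called. TAGLN, which encodes an actin-binding protein, rose by 0.55 with R157S and 0.35 with R157F and fell by 0.73 with R157K. Its R157F call was lost with the replicate block (adjusted p = 0.0531) and, like that of R157S, with the trends removed (-0.0056 and 0.29), and its R157K call after scaling (-0.32, adjusted p = 0.0636). TLN1, which encodes talin, fell by 1.04 with R157K, and by 1.01 with the trends removed. LIMA1, another actin-binding protein gene, fell by 0.78 with R157K and 0.25 with R157F, and with the trends removed R157K was at 0.07 (adjusted p = 0.268) and R157F turned to 0.29 (adjusted p = 0.00164).

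Of 12 tested partners and regulators of MYC, 1 was higher and 2 lower with R157S, 4 and 4 with R157K, and 4 and 4 with R157F. With trends removed the counts were 0 and 0, 2 and 2, and 1 and 0. FBXW7, the ubiquitin ligase subunit that marks MYC protein for degradation, fell by 0.63, 1.44 and 0.79 with R157S, R157K and R157F, and only the R157K call was kept with the trends removed (-0.48, adjusted p = 0.0105). MXI1, which competes for the MYC partner MAX, fell by 1.20 with R157K and 0.73 with R157F, and with the trends removed by 0.60 with R157K, while R157F was at -0.38 (adjusted p = 0.0755). MGA, another MAX partner, fell by 1.10 and 0.62, and lost both calls with the trends removed (-0.20 and -0.17, adjusted p = 0.087 and 0.158). MXD1, of the same network, was lower with all 3 (log2 -0.38, -0.80 and -0.49). It lost the R157S call with the replicate block (adjusted p = 0.0607) and after scaling (adjusted p = 0.0518), and all 3 calls with the trends removed (-0.11, 0.12 and 0.04).

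Of 20 tested MYC target genes 2 were higher and 8 lower with R157S, 4 and 11 with R157K, and 7 and 10 with R157F. With trends removed the counts were 0 and 3, 6 and 7, and 3 and 5. LDHA, which encodes lactate dehydrogenase A, fell by 0.52, 1.42 and 1.25, and ODC1, the first enzyme of polyamine synthesis, by 0.41, 0.97 and 0.66. The chaperone gene HSPD1 fell by 0.52, 1.11 and 0.85. These 3 genes kept all calls with the trends removed. WDR43, a ribosome assembly factor, fell by 0.62, 1.58 and 1.08, and lost only the R157S call (-0.24, adjusted p = 0.0781).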

How the data were processed

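Poly(A) RNA of 12 libraries, 3 for each of 4 plasmids, was prepared with a stranded mRNA kit, per the labels' protocols. The authors deposited 1 table of TPM values, with a row per gene and a column per library. Per the submitters' processing notes, RSEM was used. The aligner, genome build, annotation, strand setting and depth of sequencing were not given in the sources used here, so no counting interval was computed, and overlapping antisense genes (beside EGR3, IER2, IER3, IER5L and NR4A1) could share reads. Groups were taken from sample titles. The members, gene lists and tests were chosen with earlier results of these data known.

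Log2(TPM + 1) of genes that reached 1 TPM in 3 or more libraries was fitted with limma 3.58.1 in R 4.3.3, with 1 coefficient per plasmid, 8 residual degrees of freedom and a variance trend on mean level, in 6 comparisons, with Benjamini-Hochberg adjustment over all genes tested. The fit was tested on simulated data. For trend removal, each library's deviation from the gene mean was fitted with natural splines (5 degrees of freedom each) on GC content and log2 length of the GENCODE 29 principal transcript, for 14220 genes. Named genes were all 10 members, up to 4 called genes per list with the lowest F test p, and the 3 nearest profiles of EGR1, NR4A1, SRF and MYC. Of the genes this rule names, 3 are not reported here. No gene list was tested as a set.

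The labels put the replicate number under a batch tag. Most same-numbered libraries did not deviate together (correlations of deviations from group means, -0.13 to 0.39 over 18 pairs, median -0.022). Pairs of other numbers ran from -0.35 to 0.32 (36 pairs, median 0.011). The highest value, 0.39, was that of WT replicate 2 and R157K replicate 2, the libraries that stood apart within their groups. Each number holds 1 library per plasmid, too few for a test within it. Fits with the number as a block are given where a call changed.

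The alternatives were median-ratio scaling, a pseudocount of 0.1, no filter, a minimum of 5 TPM, only the 2 groups compared, the replicate block, trend removal with principal or longest transcripts, and each library left out. All 12 value columns were matched to samples, and 0 were left unmapped.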

Additional observations from a re-analysis of the deposited data

How the results depend on the processing

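The 9 tested genes in 6 comparisons gave 507 values under alternatives other than leaving out a library. Of these, 436 kept their side of the threshold, 40 lost the call, 30 gained one and 1 called value turned. That one was IER3 with R157K against WT, at -0.00083 with trends removed and WT replicate 2 left out. Values that changed sign without a call in either fit are among the 436. SRF with R157K against WT, at 0.19 and at -0.05 with trends removed, is an example. EGR1 with R157S and R157F, and IER2, IER5 and IER5L with R157K and R157F against WT, were called under every alternative run and with each library left out. So was NR4A1 with R157K against WT.

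For R157S against WT, 2 genes of the set were called, 4 after median-ratio scaling, and 1 without a filter, with only the 2 groups in the fit and with trends removed (alone, with the replicate block, without WT replicate 2, or with longest transcripts). Leaving out a library gave 1 to 6, with 6 without WT replicate 3. For R157F against WT 8 became 4 with trends removed (also with the replicate block or without WT replicate 2) and 5 with longest transcripts. For R157S against R157F 3 became 1 without a filter, 6 with only the 2 groups, and 0 to 2 with a library left out. For R157K against R157F 3 became 1 after scaling, the 1 being IER5, higher with R157K, and 1 to 3 with a library left out, with 1 without R157F replicate 1. The counts for R157K against WT, R157S against R157K and the 4-plasmid test stayed within 1.5 times, and the causes were not tested. Longest transcripts were added after seeing the data.

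All tested genes called for R157S against WT numbered 3002, and 590 without a filter, 855 with trends removed, 9 with only the 2 groups, and 39 to 5761 with a library left out. Other counts with trends removed were 6053 of 9359 for R157K against WT, 4094 of 8571 for R157F against WT, 4078 of 7371 for R157S against R157K, 493 of 798 for R157S against R157F and 1663 of 4370 for R157K against R157F. Scaling gave 4826, 339 and 1342 for the last 3. R157S against R157F ranged from 33 to 4615, and R157K against R157F was 2433 without R157F replicate 1. The replicate block changed the calls of IER5L (R157S against R157F), IER3 (R157S against R157K) and IER5 (R157K against R157F), and no other call of the set.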
